A study of Mus musculus with 6 samples.

Results

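Transcripts of 9 genes of the cardiac myosin motor were read from whole mouse hearts at embryonic day 16.5: the heavy chains Myh6, Myh7 and Myh7b, the light chains Myl1, Myl2, Myl3, Myl4 and Myl7, and the kinase Mylk3. They are 9 of the 18193 genes that the array annotation names by a single symbol, and were chosen by name. They are read by 13 single-symbol probe sets (groups of short probes for a transcript), and the main probe set of a gene is the one with the highest mean over all arrays. A further 2 probe sets are annotated to Myh6 and Myh7 together and are described apart.

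There were 3 samples of wild-type (WT) hearts and 3 of FOG-2R3K5A hearts (called mutant), from matings of double heterozygotes, and both genotypes share the strain background (C57/B6 and 129 S6, mixed). FOG-2 (gene Zfpm2) binds GATA factors and tunes their activity, and R3K5A is a set of substitutions known to stop FOG-2 from recruiting NuRD, a complex that remodels chromatin. The labels call the 3 samples of a genotype biological replicates but give neither the zygosity of the mutants nor whether a replicate was a single heart. In whole hearts, fewer cells of a type and less RNA per cell cannot be told apart. All 11 cardiomyocyte markers looked up were above the filter level, a log2 intensity of 6.30. Median intensities of the arrays ran from 77.4 to 84.1. The WT arrays did not form a close group over the tested genes. WT replicate 1 correlated with mutant replicate 2 at 0.990, against 0.982 and 0.986 with the other WT arrays, and WT replicate 2 had the lowest correlations, 0.972 to 0.985 with the other 5 arrays.

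Sarcomeric myosin is built from a pair of heavy chains, which hold the ATP-splitting motor and the filament-forming rod. Each heavy chain carries an essential and a regulatory light chain on its neck. In the mouse heart the heavy chain shifts from the slow beta form (Myh7) of the fetal ventricle to the fast alpha form (Myh6) after birth, while the atria use the alpha form throughout. The light chains are usually grouped by chamber, with Myl4 (essential) and Myl7 (regulatory) known as atrial and Myl3 (essential) and Myl2 (regulatory) as ventricular. How strict this split was in hearts of this age was not tested. GATA factors are long-known activators of several of these genes.

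The 3 heavy chain genes each hold a microRNA inside the gene, and these are shown because a heavy chain transcript is also the transcript that carries its microRNA. The microRNAs themselves were not analysed here. The mature strands below are from RefSeq (GRCm38.p6), with the seed, bases 2 to 8, in capitals. Mir208a lies within Myh6, Mir208b within Myh7 and Mir499 within Myh7b.
miR-208a-3p, chr14:54949072-54949093, minus strand: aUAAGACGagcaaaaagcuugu
miR-208b-3p, chr14:54975710-54975731, minus strand: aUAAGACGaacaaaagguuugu
miR-499-5p, chr2:155622893-155622913, plus strand: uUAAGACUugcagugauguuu
The seeds of miR-208a-3p and miR-208b-3p were identical, UAAGACG, and that of miR-499-5p, UAAGACU, differed from them only in its last base. Myh6 and Myh7 are next to each other on the chromosome, with 0 protein-coding genes listed between them.

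The GATA cofactor studied here is the reason for looking at GATA-type letters near the starts of the genes. The RefSeq table (GRCm38.p6) held 12 windows for the 9 genes, each 250 bases before to 50 after an annotated start. The letters AGATAA or AGATAG, and the forms that begin with T in place of A, namely TGATAA or TGATAG, were searched on both strands. They were found in 8 of the 12 windows, belonging to 7 genes, against 29.8% of all 32851 windows in the table. The Myl4 and Myh7 windows held none. Myl2 had a match in the window printed below and none in its other window. The 250 bases before the start are printed, with these letters in capitals, for Myl7 and Myh6, the genes whose genotypes did not overlap in the arrays, and for Myl2, the ventricular counterpart of Myl7.
Myl7, chr11:5898783-5899032, minus strand: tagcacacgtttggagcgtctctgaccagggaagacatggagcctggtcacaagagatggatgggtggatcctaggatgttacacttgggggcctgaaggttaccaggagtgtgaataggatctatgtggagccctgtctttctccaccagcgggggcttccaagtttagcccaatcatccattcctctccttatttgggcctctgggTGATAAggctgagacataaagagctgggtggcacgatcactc
Myh6, chr14:54966608-54966857, minus strand: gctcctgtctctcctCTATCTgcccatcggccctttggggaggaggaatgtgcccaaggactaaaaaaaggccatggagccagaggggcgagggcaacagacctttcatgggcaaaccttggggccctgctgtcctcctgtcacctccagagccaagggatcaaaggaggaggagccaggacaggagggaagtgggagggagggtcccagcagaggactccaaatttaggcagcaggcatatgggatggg
Myl2, chr5:122092474-122092723, plus strand: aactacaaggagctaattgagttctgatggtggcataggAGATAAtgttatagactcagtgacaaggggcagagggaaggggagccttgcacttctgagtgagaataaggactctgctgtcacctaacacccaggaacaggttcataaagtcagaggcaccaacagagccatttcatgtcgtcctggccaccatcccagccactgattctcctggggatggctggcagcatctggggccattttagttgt
The match in Myh6 is read on the opposite strand (CTATCT). Mylk3 held 2 such matches in 1 of its windows and 1 in the other. The letters CATTCC, known as the MCAT element of muscle genes, were also searched on both strands. They were present in windows of Myl1, Mylk3, Myl3, Myl7, Myh6 and Myh7 and in 14.7% of all windows. The letters TATAAA were in windows of Myl1, Myl2 and Myh6 and in 13.6% of all. In Myh6 they lay after the start, outside the bases printed above. A pattern known as the MEF2 site was searched as well. It was found in 3.69% of all windows and in no window of these genes. A match of letters says nothing of binding in these hearts.

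No myosin gene passed the test between genotypes: 0 of 9 had an adjusted p under 0.05 (limma, Benjamini-Hochberg over all 11113 genes tested), where 1.76% of all tested genes did. At an unadjusted p under 0.05 there were 2, Myl7 and Myh6, where 14.7% of all tested genes were, and 8.4% with mutants higher. That count of 2 depended on the model: it was 5 with the replicate number as a block, 4 without WT replicate 1 and 0 without the intensity trend. In the second fit, over probe sets, 0 of the 12 probe sets of these genes above the filter level passed and 2 had an unadjusted p under 0.05, against 1.1% and 14.1% of all probe sets. The same 2 genes were the ones whose genotypes did not overlap, both higher in mutants. Of all tested genes 21.2% did not overlap, 11.5% with mutants higher. Differences were positive for 7 of the 9 and had a median of 0.05 log2 units (mutant minus WT, as for every difference here), against 47.2% positive and a median of -0.01 over all tested genes.

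**Figure D1:**
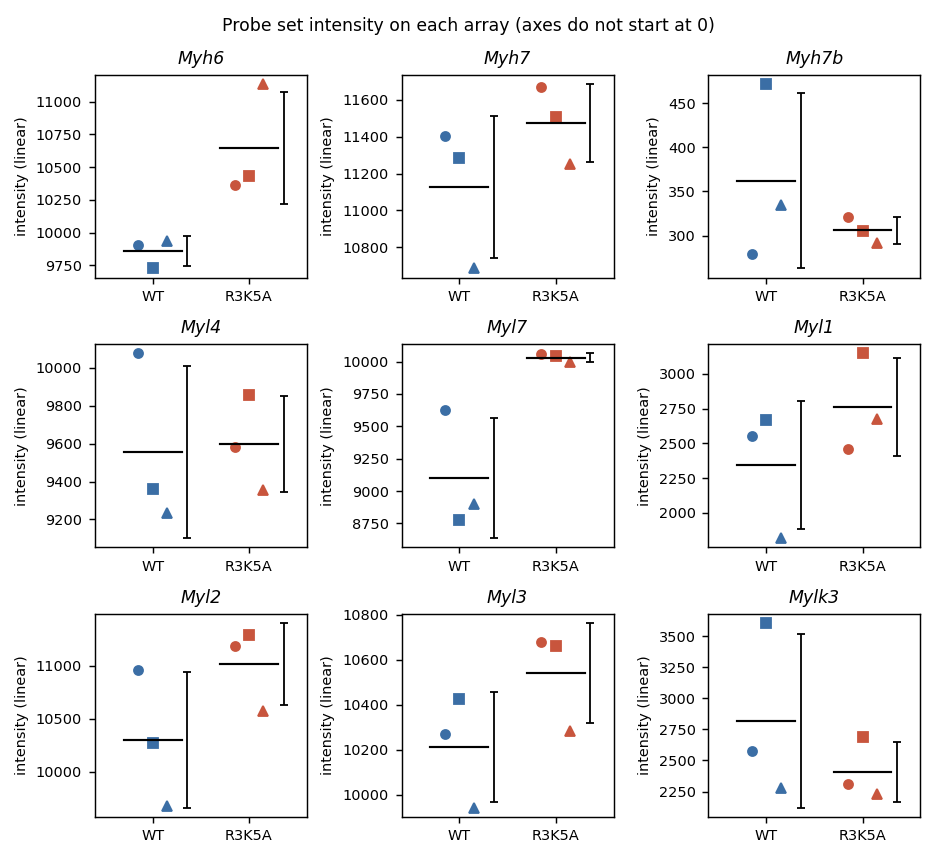
Linear probe set intensity of the 9 genes on each array, with WT in blue and mutants in red. Circles, squares and triangles are replicates 1, 2 and 3, lines are means and bars the SD of 3 arrays. The axes do not start at 0. Mutant Myl7 lies between 9994 and 10056, above the highest WT array at 9630.0, and Myh7b and Mylk3 each have 1 high WT array.

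Myl7, the atrial regulatory light chain, had the smallest p of the 9. Its intensity was 9630.0, 8774 and 8897 on WT replicates 1 to 3 and 10056, 10044 and 9994 on mutant replicates 1 to 3. The mutant arrays were close to each other and all above the WT arrays. The difference was 0.14 log2 units (SE 0.04, 1.10-fold, adjusted p = 0.160), with a 95% interval for the change in intensity of 3.24% to 17.9%, not corrected for the number of genes. Without WT replicate 1, the WT array nearest to the mutants, it became 0.18 and passed (adjusted p = 0.0265). In that fit 451 of the 11113 tested genes were called, against 196 with all arrays. Without any of the other 5 arrays the Myl7 difference was 0.12 to 0.14 and did not pass. The 18S rRNA control probe sets read 969 on that array, 429 and 411 on the other WT arrays and 631 to 1051 in mutants, an order in which WT replicate 1 again sat with the mutants. Whether this bears on Myl7 was not tested.

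Myl4, the atrial essential light chain, read 10076, 9359 and 9235 in WT and 9582, 9857 and 9354 in mutants. Its groups overlapped across their whole range, with the highest array in WT. The difference was 0.01 log2 units (SE 0.04, adjusted p = 0.955), a change between -6.15% and 7.59% in its 95% interval, and turned to -0.03 after quantile normalization. The second Myl4 probe set was under the filter level (41.2 to 82.3 on the 6 arrays) and was not tested. Myl7 thus separated the genotypes and Myl4 did not, and the difference between the atrial chains was not tested.

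Myl2, the ventricular regulatory chain that the cardiac kinase phosphorylates, read 10958, 10275 and 9678 in WT and 11192, 11288 and 10571 in mutants. Mutant replicate 3 fell below WT replicate 1, so the groups overlapped. The difference was 0.10 log2 units (SE 0.05, adjusted p = 0.401), with a 95% interval of -1.06% to 15.7%. Myl3, the ventricular essential chain, read 10270.1, 10424 and 9944 in WT and 10678, 10661 and 10284 in mutants, again overlapping. Its difference was 0.05 (SE 0.04, adjusted p = 0.583, interval -2.41% to 9.17%), and the other 2 Myl3 probe sets gave 0.02 and 0.01. In both genotypes replicate 3 was the lowest array for Myl2, Myl3, Myl4 and Myh7.

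**Figure D2:**
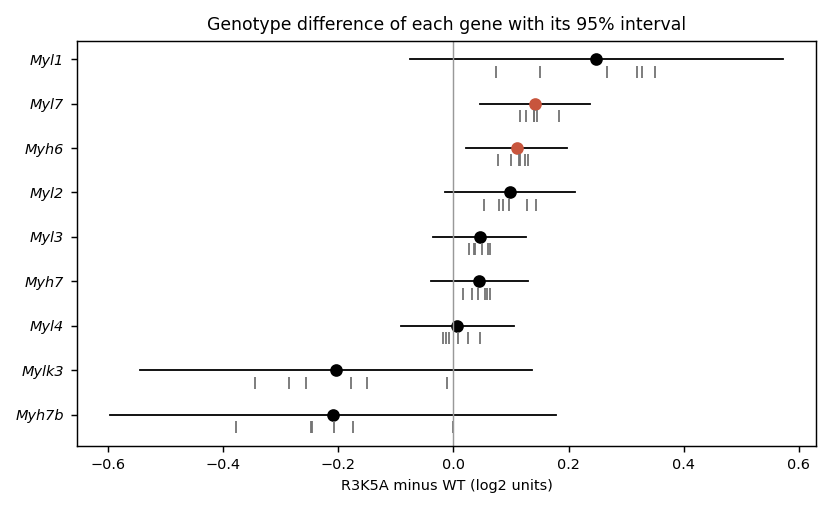
Difference between genotypes for each gene on the log2 scale, with its 95% interval from limma. Red points are the 2 genes whose genotypes did not overlap, and the grey ticks below each point are the differences with 1 of the 6 arrays left out. The ticks of Myh7b and Mylk3 reach 0 and those of Myl7 and Myh6 stay between 0.08 and 0.18.

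The contrast of atrial against ventricular chains was taken within each array, as the mean log2 intensity of Myl4 and Myl7 minus that of Myl2 and Myl3. It was -0.11, -0.19 and -0.11 in WT and -0.16, -0.14 and -0.11 in mutants. The mean was -0.14 ± 0.05 (SD, n = 3) in WT and -0.14 ± 0.02 in mutants, and the difference between genotypes was 0.0026 log2 units. No test was run on this score, because its genes were picked with results known. Its sign at a given array depends on the probes and does not rank the chains by abundance.

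Taken by light chain type, Myl7 minus Myl2 had a genotype difference of 0.04 and Myl4 minus Myl3 one of -0.04, with overlapping groups in both. Of the regulatory chains, Myl2 as well as Myl7 was higher in mutants on average. The pair that separated the genotypes was Myl7 minus Myl4, looked at after its values were seen. It was -0.07, -0.09 and -0.05 in WT and 0.07, 0.03 and 0.10 in mutants, with no overlap.

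**Figure D3:**
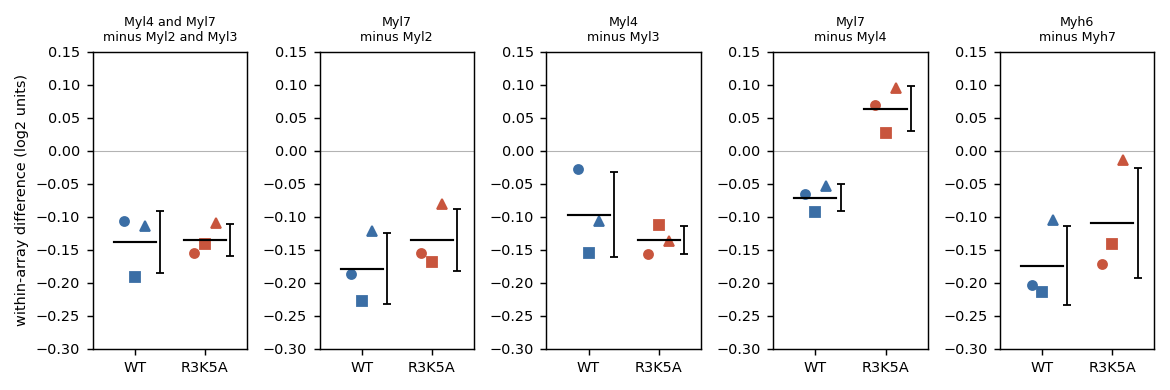
Within-array differences in log2 units between pairs of myosin chains, for WT (blue) and mutants (red). Circles, squares and triangles are replicates 1, 2 and 3, lines are means and bars the SD of 3 arrays. The atrial minus ventricular score overlaps between genotypes, while Myl7 minus Myl4 runs from -0.09 to -0.05 in WT and from 0.03 to 0.10 in mutants.

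Among the heavy chains, Myh6 (alpha) read 9909, 9727 and 9938 in WT and 10362, 10433 and 11137 in mutants. All mutant arrays were above all WT arrays, and mutant replicate 3 was highest. The difference was 0.11 log2 units (SE 0.04, 1.08-fold, adjusted p = 0.227), with a 95% interval of 1.57% to 14.7%. It did not pass in any fit with 1 array left out (0.08 to 0.13). A dimmer Myh6 probe set read 1240.1, 1955 and 1354 in WT and 1506, 1568 and 1801 in mutants. There the genotypes overlapped, WT replicate 2 was the highest of all arrays, and the difference was 0.12 (SE 0.16, adjusted p = 0.749).

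Myh7 (beta) read 11404, 11286 and 10686 in WT and 11670.2, 11504 and 11250 in mutants, with overlap. Its difference was 0.04 log2 units (SE 0.04, adjusted p = 0.603), with a 95% interval of -2.68% to 9.36%. The probe sets that read Myh6 and Myh7 together gave 0.06 and -0.08, the latter with WT replicate 2 at 4691 and the other 5 arrays at 3455 to 3742. Myh6 minus Myh7 within arrays was -0.17 ± 0.06 in WT and -0.11 ± 0.08 in mutants, with overlapping groups. The genotypes were thus not separated by the balance of alpha and beta chains.

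The other 3 genes were dimmer and varied more, and the size of each difference rested on 1 WT array. Myh7b, a slow-type heavy chain and the host of miR-499, read 279.5, 471.8 and 334.6 in WT and 321.6, 305.2 and 291.5 in mutants. WT replicate 2 was highest, WT replicate 1 lowest, and the mutants lay between. The difference was -0.21 log2 units (SE 0.17, adjusted p = 0.601), with an interval of -33.8% to 13.1%, and -0.000063 without WT replicate 2. Mylk3, the cardiac myosin light chain kinase that phosphorylates Myl2, read 2576, 3609 and 2276 in WT and 2314, 2686 and 2229 in mutants. WT replicate 2 was again the highest, and without it the difference went from -0.20 (SE 0.15, adjusted p = 0.560) to -0.01. The interval with all arrays was -31.4% to 9.94%. That array was the highest of the 6 for 21.3% and the lowest for 27.9% of all tested genes.

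Myl1, the essential light chain of fast skeletal muscle, read 2551, 2668 and 1820 in WT and 2462, 3148 and 2676 in mutants. WT replicate 3 was low and mutant replicate 2 high, and the others overlapped. The difference of 0.25 (SE 0.14, adjusted p = 0.455) had an interval of -5.12% to 48.6%, was the largest of the 9 and became 0.07 without WT replicate 3. Markers of skeletal muscle were looked at beside it. Of 24, 16 were under the filter level, among them the muscle-determining factors Myod1 and Myog and the fast heavy chains Myh1, Myh2 and Myh4. The summed intensity of the other 8, which include genes also known in heart muscle such as Ckm and Acta1, was 11131 to 13635 in WT and 10902 to 11827 in mutants. Of these 8, Tnni2 and Casq1 fell, by 1.04 and 0.41 log2 units (adjusted p = 0.0217 and 0.0467), where 0.369% of all tested genes were called lower. They were not called in 3 of 6 and 6 of 6 fits with 1 array left out. In the limma fit over probe sets a second Tnni2 probe set gave -1.53 (adjusted p = 0.0409), and Casq1 did not pass (adjusted p = 0.0611). Of the 8, 5 had negative differences and 3 positive ones that did not pass, Mybpc2 at 0.31, Mybpc1 at 0.13 and Acta1 at 0.12. Without WT replicate 2 they were 4 and 4. The markers thus had no common direction beside Myl1, and their part in its values was not tested.

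The genes with the most similar pattern to Myh7b and Mylk3, the most variable of the 9, were found by the root mean square distance between log2 deviations over 6 arrays. For Myh7b they were Pygm, which encodes muscle glycogen phosphorylase (distance 0.02), Erf (0.03), Slc9a3r2 (0.04), Dnajb2 (0.06) and Ptms (0.06). For Mylk3 they were Foxm1 (0.04), Zfp36 (0.05), Atat1 (0.05), Acin1 (0.05) and Kifc1 (0.06). All 10 were highest on WT replicate 2, as Myh7b and Mylk3 were, which follows largely from the choice by distance.

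The 6 chains Myh6, Myh7, Myl2, Myl3, Myl4 and Myl7 were among the 31 brightest of the 11113 tested genes, at means of 13.2 to 13.5 log2 units, where the brightest array controls also lay (13.5 in WT and 13.4 in mutants). In the 100 brightest genes, a class set after the values were seen, the median residual SD within genotypes was 0.04 against 0.12 over all tested genes. The median absolute difference there was 0.04 against 0.11. Small differences are therefore the norm at this brightness, and whether the signal was compressed was not tested. Of the other 94 genes of the class, 78.7% had a positive difference, 19.1% had mutants above WT with no overlap and 1 gene had mutants below. The 6 chains, with 6 positive and 2 separated, sat in a class that mostly read higher in mutants. The median difference of the other 94 was 0.04, and the 90th percentile of their absolute difference was 0.09, which Myl7, Myh6 and Myl2 exceeded.

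**Figure D4:**
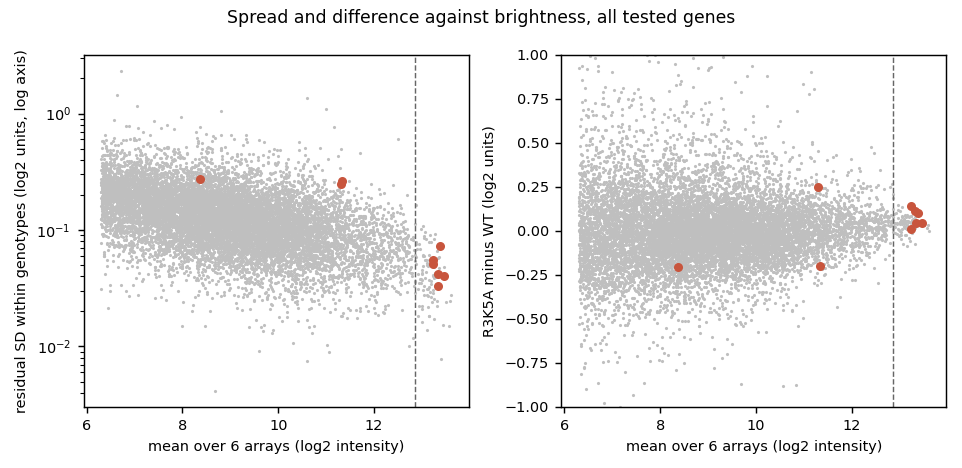
Residual SD within genotypes (left, log axis) and difference between genotypes (right, log2 units, shown from -1 to 1) against mean log2 intensity for all tested genes in grey and the 9 myosin genes in red. The dashed line marks the 100 brightest genes. The 6 main chains lie at its right with SDs of 0.03 to 0.07, while Myl1, Mylk3 and Myh7b lie at 0.25 to 0.28.

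Genes around the motor were taken from lists by role. Of 10 tested other striated myosin chains and myosin-binding proteins, 0 passed, and their median difference was 0.0021. Mylpf, the fast skeletal regulatory chain, had -0.29 (adjusted p = 0.322) and Mybph -0.33 (adjusted p = 0.409). Of 6 nonmuscle and smooth muscle chains 0 passed, with 5 positive and a median of 0.13. Myl6, their essential chain, had -0.29 (adjusted p = 0.306) and Myl9, the smooth muscle regulatory chain, 0.14 (adjusted p = 0.328). Of 7 kinases and phosphatase subunits that act on light chains 0 passed, with a median of -0.03. Ppp1r12b, a targeting subunit of myosin phosphatase known from heart and skeletal muscle, had -0.19 (adjusted p = 0.32), its other probe sets -0.35 and 0.05, and its relative Ppp1r12c -0.19 (adjusted p = 0.607).

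Myosin folding and turnover held called genes in both directions, 1 higher and 1 lower of 7 (1.39% and 0.369% over all genes). Unc45b, the muscle chaperone that folds the myosin motor domain, read 11.39, 11.49 and 11.42 log2 units in WT and 11.13, 11.21 and 11.04 in mutants. The genotypes were apart and the difference was -0.31 (SE 0.06, 1.24-fold lower, adjusted p = 0.0480). Trim54, a muscle RING-finger protein, was dim in both genotypes at 6.49 ± 0.11 in WT and 7.14 ± 0.03 in mutants and rose by 0.65 (SE 0.12, adjusted p = 0.0370). Both calls were lost in 5 of 6 fits with 1 array left out and held only without WT replicate 1, where 451 genes were called in all. In the fit over probe sets the adjusted p was 0.0629 for Unc45b and 0.0429 for Trim54. The adjusted p ran from 0.0427 to 0.213 for Unc45b and from 0.0231 to 0.205 for Trim54 in those fits.

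Of 16 tested regulators known to act on these chains, 1 had a positive difference (47.2% of all tested genes did) and 15 a negative one, with a median of -0.17. In 6 of them, Irx4 and Hey2 included, mutants lay below WT with no overlap, against 9.76% of all tested genes. Irx4 and Hey2 are also in the ventricular list below, and Nr2f2 is in the atrial list. Of the 16, 1 passed, lower in mutants, against 0.369% of all tested genes called lower. That was Tbx20, a T-box factor, at -0.38 (SE 0.08, adjusted p = 0.0461), a call lost in 5 of 6 fits with 1 array left out, the exception being that without WT replicate 1 (adjusted p = 0.0260 to 0.204 in those fits). Its other probe sets gave -0.38 and -0.29, and in the fit over probe sets it did not pass (adjusted p = 0.0599). WT replicate 2 was the highest array for 10 of the 16, and their summed intensity was 31803 there against 26485 and 27712 on the other WT arrays and 24041 to 25042 in mutants. Without that array 13 of 16 were negative, with a median of -0.14, while 45.6% of all tested genes were positive. Their relation to the myosin values was not tested.

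Of 12 other atrial genes, 1 passed, higher in mutants, where 1.39% of all tested genes did. Differences were positive for 7, against 47.2% of all tested genes, with a median of 0.03. Mutants lay above WT with no overlap for 3 of the 12 (Nppa, Kcnj3 and Fgf12) and below for 0. Over all tested genes these shares were 11.5% and 9.76%. The summed intensity of the list was 19541 to 19830 in WT and 20332 to 21524 in mutants. That sum is linear and follows the brightest gene above all, which was Nppa. Nppa read 13.38 log2 units in WT and 13.49 in mutants (0.10, adjusted p = 0.174). The differences of 5 of the 12 genes were negative. Kcnj3, a subunit of the acetylcholine-activated potassium channel, rose from 8.96 ± 0.12 to 9.65 ± 0.06 (0.69, SE 0.09, adjusted p = 0.00853), with other probe sets at 0.47 and 0.52, and was not called without mutant replicate 1 or 3 (adjusted p = 0.0674 and 0.0502) or with the mean over probe sets, where its difference was 0.42 (adjusted p = 0.0602). Of 8 other ventricular genes 0 passed and 4 were negative, with a median of -0.04. Mutants lay below WT with no overlap for 3 of the 8 (Irx4, Hey2 and Kcnip2) and above for 1 (Pln), against 9.76% and 11.5% of all tested genes. Irx4 and Hey2 were already counted among the regulators above. The summed intensities overlapped (25210 to 28101 in WT and 25686 to 26587 in mutants). The difference between the atrial and ventricular lists was not tested. Kcnip2 read 7.24, 9.17 and 9.31 log2 units in WT and 6.34, 5.82 and 6.62 in mutants, whose mean was under the filter level. Its adjusted p was 0.0510, and it passed in 5 of 13 alternatives: without WT replicate 1 (0.0016), with array quality weights (0.0091), median centring (0.0323), the replicate block (0.0376) and quantile normalization (0.0418). Hey2, a transcriptional repressor found in the compact ventricular wall, had -0.25 (adjusted p = 0.21).

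**Figure D5:**
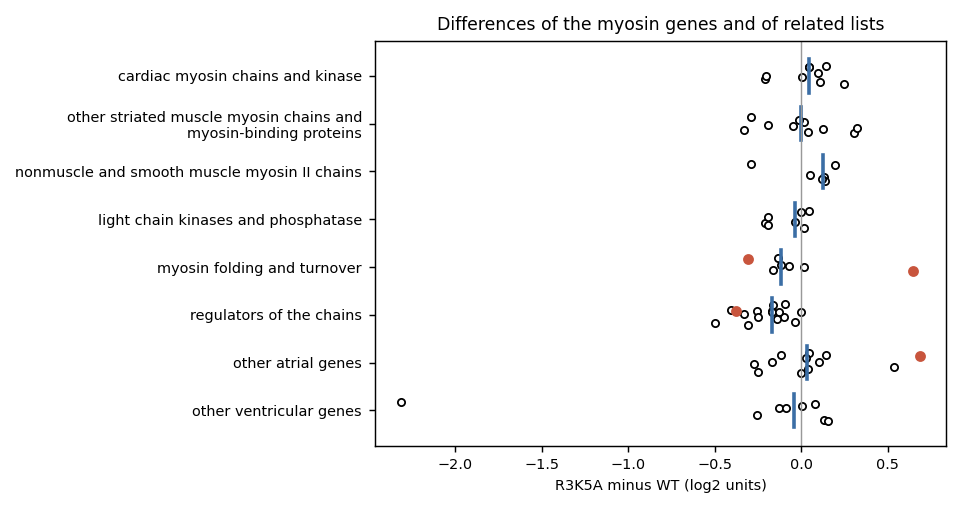
Difference between genotypes in log2 units for the 9 myosin genes and for each list of related genes. Each circle is a tested gene, red where the adjusted p was under 0.05, and blue bars are medians. The 9 myosin genes lie between -0.21 and 0.25, the called genes are Unc45b, Trim54, Tbx20 and Kcnj3, and 15 of 16 regulators lie below 0.

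Markers of other cell types were read on the same arrays. In the smooth muscle, erythroid, endothelial, fibroblast and macrophage lists 0 passed. Mutants lay above WT with no overlap for 3 of 6 fibroblast, 2 of 5 endothelial and 1 of 5 smooth muscle markers. They did so for 1 of 4 macrophage and 0 of 2 erythroid markers, against 11.5% of all tested genes. Below WT with no overlap lay 1 endothelial marker, against 9.76% of all tested genes. The summed intensity of 11 cardiomyocyte markers was 81673 to 85259 in WT and 82434 to 84769 in mutants, and 0 of them passed. That of 7 epicardial markers was 5512 to 5590.1 in WT and 6313 to 6850 in mutants, with Upk3b, Msln and Krt19 called higher (3 of 7, against 1.39% of all tested genes), Upk1b at 0.59 without passing, and Wt1, Tbx18 and Tcf21 at -0.06, -0.11 and -0.09. With 1 array left out Upk3b was lost in 4 of 6 fits, Msln in 3 and Krt19 in 0. Of 6 lung and airway markers, 3 were under the filter level and 0 passed. Scgb3a2 read 9.03, 4.87 and 11.36 log2 units in mutant replicates 1 to 3 and 4.81 to 5.40 in WT. Sftpc read 6.17, 5.80 and 9.43 in mutants and 5.86 to 6.53 in WT. Sftpb overlapped, with a difference of -0.14. Whether the markers of any of these cell types bear on the myosin values was not tested.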

How the data were processed

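Total RNA of whole hearts was labelled with biotin and hybridised to 1-colour Affymetrix mouse arrays, per the labels' protocols. The authors' deposited table holds linear intensity values for 45101 probe sets, scaled between arrays as their medians show (within 0.12 log2 units). Which software and normalization made them is not stated in the sources used here.

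Intensities were floored at 1 and log2-transformed. Each gene was read by its brightest probe set with a single symbol in the platform annotation. Genes with a mean above the median of all non-control probe sets (6.30 log2 units, intensity 78.9) were tested, 11113 in all. The genotype difference was fitted in limma 3.58.1 under R 4.3.3 (lmFit, eBayes with trend, two-sided, Benjamini-Hochberg), and genes were called at an adjusted p under 0.05. A second limma fit covered 19762 probe sets. The p-values set the genotype difference against the spread of these 6 samples within genotypes, moderated over all genes. The number of arrays limits precision. In simulated arrays of 11113 genes the fit called 47.5% of genes changed by 0.5 log2 units and 89.55% of those changed by 1. The changed genes were drawn from all tested genes. Changes as small as those of the 6 main chains were not simulated.

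The 9 genes, the lists and the tests were chosen with earlier results of these data known. From the lists the called genes were named, or, in lists with none, the 2 genes of smallest p, and markers where they bear on a result. For the 2 most variable of the 9, the 5 nearest genes were named. Alternatives covered normalization, offset, filter, probe sets, variance model, replicate block and each array left out. The list counts without WT replicate 2 were added after the data were seen.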

Additional observations from a re-analysis of the deposited data

How the results depend on the processing

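Over 15 alternatives the 9 myosin genes gave 134 values (Myh7b was under the stricter filter). Of these, 129 kept their direction and side of the threshold, 4 reversed and 1, Myl7 without WT replicate 1, passed. The reversals were all of Myl4, whose difference of 0.01 became -0.035 after quantile normalization, -0.0076 without WT replicate 2, -0.017 without WT replicate 3 and -0.012 without mutant replicate 2. Its values with 1 array left out ran from -0.017 to 0.046. The number of myosin genes called was 0 to 1 with 1 array left out and 0 in all other alternatives. The atrial minus ventricular difference of 0.0026 moved to 0.041 with the mean over probe sets, which brings in the dim Myl4 probe set (Myl4 then 0.07) and the other 2 Myl3 probe sets (Myl3 then 0.03). The count over all genes, 196, became 81 without a filter, 106 with a filter at the 75th percentile, 125 with the mean over probe sets, 119 without the intensity trend, 429 with array quality weights and 37 to 451 with 1 array left out. The extremes were without mutant replicate 1 and without WT replicate 1. Without WT replicates 2 and 3 and mutant replicates 2 and 3 it was 92, 61, 84 and 51.

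With the replicate number as a block, 0 myosin genes and 234 genes in all were called. The number of myosin genes with an unadjusted p under 0.05, 2 of 9, was 5 with the block, 4 without WT replicate 1, 3 without WT replicate 3, 3 with array quality weights, 1 with quantile normalization, 1 with the mean over probe sets and 0 without the intensity trend. The labels do not say whether arrays of the same number belong together, and this was not tested. Deviations of same-numbered arrays correlated at -0.06, 0.13 and 0.41. The last, for replicate 3, was the highest of all pairs of a WT and a mutant array. WT replicate 1 correlated best with mutant replicate 2 (0.15). The 6 main chains were near the brightest controls in brightness, and whether this reduced their differences was not tested.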
